A study of Mus musculus with 6 samples.

Results

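The genes described here belong to the piRNA pathway and the germ granule of the male germ line. The rule listed 10 mouse symbols, and each row of the array whose RefSeq accession matched one of them was taken. Of the 10 genes, 6 had a row, namely Piwil2, Ddx4, Mov10l1, Tdrd1, Mael and Asz1, and they were measured by 7 of the 25631 rows because Tdrd1 had 2. Piwil4, Tdrd5, Tdrd9 and Gtsf1 matched no row by accession and were not analysed here.

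piRNAs are small RNAs that guide PIWI proteins to the transcripts of transposons and, in fetal male germ cells, to the loci those transcripts come from, where DNA methylation follows. Their precursors are unwound, cut and loaded in cytoplasmic granules between mitochondria, which hold helicases, PIWI proteins and the Tudor domain proteins that bind methylated arginines on the PIWI proteins. Loss of most of these proteins in mice derepresses transposons and blocks spermatogenesis, mostly in meiosis.

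RNA came from whole testes of male mice 9 days after birth, labelled with Cy3 and hybridised to NimbleGen 60-mer expression arrays, with 1 sample on each array. The 3 control samples were Cre-negative and the 3 Dmrt1 KO samples were Cre-positive, and both groups carried the genotype label NGN-cre. The labels do not say which cells the Cre acts in, which Dmrt1 allele it deletes, what strain the mice were, or whether a sample is 1 animal. Dmrt1 encodes a DNA-binding factor of Sertoli cells and germ cells. The labels name no animals, and the p-values therefore cover a spread between samples that may be technical. Median intensity per array ran from 498.1 to 543.8. Because all Dmrt1 KO samples and no controls were Cre-positive, the presence of Cre and the loss of Dmrt1 cannot be told apart.

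Dmrt1 itself read 13.59, 13.49 and 13.21 in log2 intensity on the control arrays, listed here and below in the order of their replicate numbers, and 11.98, 12.08 and 12.27 on the Dmrt1 KO arrays, all lower than every control (log2 fold change -1.32 ± 0.20, SE, limma adjusted p = 0.124). The sources used here do not place the Dmrt1 probes relative to the deletion. Dmrt1 KO replicate 3 stood apart, with a Pearson's r of log2 intensity of at most 0.973 to any other array, across rows that are not independent replicates, where no other pair was below 0.978. The 7 germ cell markers measured beside the pathway genes were all above the background guide in at least 1 group. This guide is a log2 intensity of 7.19, the 95th percentile of 1064 olfactory receptor rows. Both group means of all 7 piRNA pathway rows also lay above it.

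The promoters of 3 of these genes are shown, chosen after the values below were seen. Ddx4 and Tdrd1 have the rows whose groups did not overlap, and Mael has the row whose difference was nearest to 0. A link between these promoters and the values was not tested. Each is the 250 bases before a RefSeq transcription start on the strand of the gene, in build GRCm38.p6, with CpG dinucleotides in capitals. The windows are chr13:112652311-112652560 on the minus strand for Ddx4, chr1:166238745-166238994 on the minus strand for Mael, and chr19:56826025-56826274 on the plus strand for Tdrd1, which has 3 annotated starts and is shown by the window with the most CpG dinucleotides.
Ddx4: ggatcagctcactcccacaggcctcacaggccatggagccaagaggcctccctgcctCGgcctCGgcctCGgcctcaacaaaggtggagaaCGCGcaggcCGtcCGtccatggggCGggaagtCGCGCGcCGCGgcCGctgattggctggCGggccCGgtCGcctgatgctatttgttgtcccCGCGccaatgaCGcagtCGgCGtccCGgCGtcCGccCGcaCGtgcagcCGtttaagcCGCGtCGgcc
Mael: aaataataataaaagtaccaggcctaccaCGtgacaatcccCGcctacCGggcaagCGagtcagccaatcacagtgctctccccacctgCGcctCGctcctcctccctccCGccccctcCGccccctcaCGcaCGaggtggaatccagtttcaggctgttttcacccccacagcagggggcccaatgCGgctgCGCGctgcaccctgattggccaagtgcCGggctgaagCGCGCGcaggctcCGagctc
Tdrd1: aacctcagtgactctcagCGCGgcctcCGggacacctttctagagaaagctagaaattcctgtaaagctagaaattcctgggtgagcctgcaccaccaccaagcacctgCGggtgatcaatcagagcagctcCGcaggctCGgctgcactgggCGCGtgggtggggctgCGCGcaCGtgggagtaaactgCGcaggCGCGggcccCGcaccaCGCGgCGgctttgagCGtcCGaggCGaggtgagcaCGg

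The Ddx4 window holds 31 CpG dinucleotides, a number reached by 5.2% of the 32851 windows in the RefSeq table, whose median is 6. The Mael window holds 18, reached by 21.7%, and the Tdrd1 window shown holds 22, reached by 14.8%. The remaining Tdrd1 windows hold 11, reached by 35.6%, and 3, reached by 71.0%. The letters TCCCGC, searched on both strands, are the core of the site of E2F6, a repressor of germ line genes in somatic cells. They were found once each in the Ddx4 and Mael windows and in none of the other windows of Asz1, Mov10l1 and Tdrd1, and in 16.9% of all windows. TCCCGC overlaps a CpG. The letters ACANTGT, which read the same on both strands and are the middle of the DMRT1 consensus, were in 0 of the 7 windows of these 5 genes and in 6.47% of all windows. These letters describe the windows only. No window was listed for Piwil2.

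None of the 7 rows passed the test between Dmrt1 KO and control testes, and the differences were small. The log2 fold changes ran from -0.12 for Ddx4 to 0.50 for 1 row of Tdrd1, with a median of 0.11 over the 6 genes against -0.02 over all rows. This median was -0.02 when Dmrt1 KO replicate 2 was left out and 0.07 when control replicate 2 was, and leaving out Dmrt1 KO replicate 3 gave 0.24. In limma 0 rows passed an adjusted p of 0.05, where 0.0312% of all rows did, and at an unadjusted p of 0.05 there was 1 higher row, against 4.41% of all rows, and 0 lower rows, against 5.1%. The log2 fold change was above 0 in 5 of the 7 rows, against 48% of all rows. In 2 of the 7, Asz1 and the NM_031387 row of Tdrd1, every Dmrt1 KO array was above the control mean, against 18.8% of all rows. The 95% confidence intervals of the 7 rows reached from 0.69-fold at the lowest to 1.95-fold at the highest. In this fit a change of 2-fold in either direction thus lies outside each of them. That bound did not hold in every alternative setting. Without control replicate 3, Asz1 was at 0.51 ± 0.26 (SE) and the higher row of Tdrd1 at 0.60 ± 0.22, with upper bounds past 2-fold. Standard errors ran from 0.18 to 0.27 on the log2 scale. In bulk tissue, a difference in the number of germ cells and a difference in RNA per germ cell cannot be told apart.

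**Figure D1:**
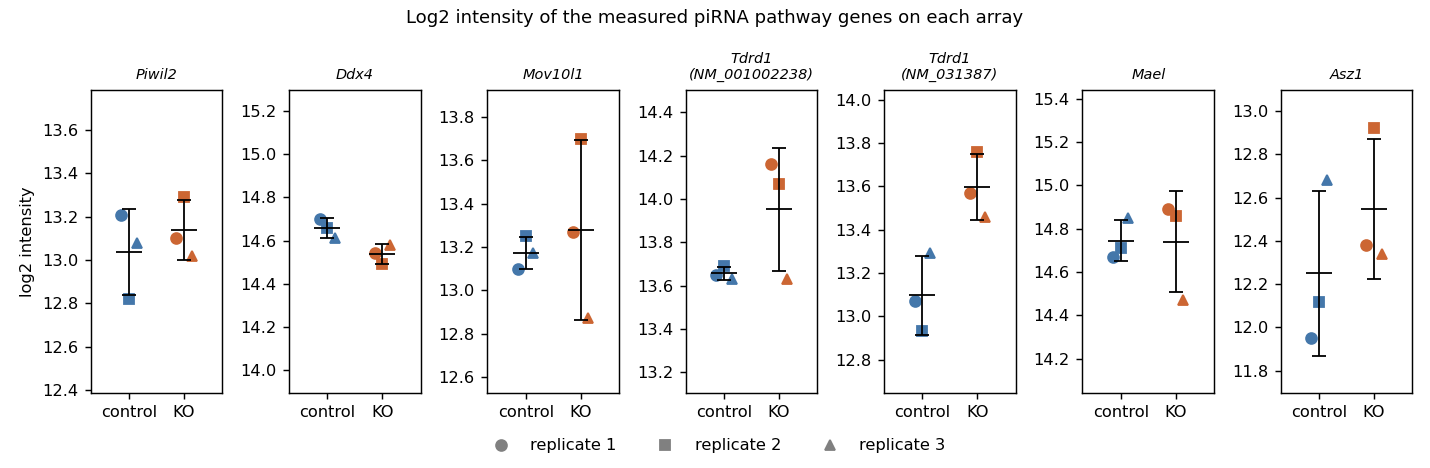
Log2 intensity (y axis) of each of the 7 rows on the control and Dmrt1 KO (KO) arrays, with every panel spanning the same range of log2 units around its own mean. Coloured symbols are single arrays, with their shape giving the replicate, and black marks are the mean and SD of 3 arrays. The groups are separated for Ddx4 and for the NM_031387 row of Tdrd1 and overlap in the other 5 panels.

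Piwil2 encodes MILI, the PIWI protein that is loaded with piRNAs from transposons before and after birth. It read 13.21, 12.82 and 13.08 in log2 intensity in the controls and 13.10, 13.29 and 13.02 in the Dmrt1 KO arrays. The Dmrt1 KO values all lay inside or just above the range of the controls, and the groups overlapped. The log2 fold change was 0.10 ± 0.20 (SE, n = 3 arrays per group, limma adjusted p = 0.922), with a 95% interval from -0.37 to 0.57. Its sign rested on control replicate 2, the lowest array, without which it was -0.01.

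Ddx4, the mouse Vasa homolog, is an RNA helicase that marks germ cells from the fetal gonad onward and takes part in piRNA amplification. Its log2 intensity was 14.70, 14.66 and 14.61 in the controls and 14.54, 14.49 and 14.58 in the Dmrt1 KO arrays. All 3 Dmrt1 KO arrays lay narrowly below all 3 controls. The log2 fold change was -0.12 ± 0.18 (SE, limma adjusted p = 0.883), with a 95% interval from -0.53 to 0.29. Of all rows 8.54% had every Dmrt1 KO array below every control, so 1 such row among 7 is near the background.

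Mov10l1 encodes the helicase that binds piRNA precursors and is needed for their processing. Its log2 intensity was 13.10, 13.25 and 13.17 in the controls and 13.27, 13.70 and 12.87 in the Dmrt1 KO arrays. The controls lay close together, while Dmrt1 KO replicate 2 was above and replicate 3 below all of them. The SD was 0.07 in the controls and 0.42 in the Dmrt1 KO arrays, and the log2 fold change was 0.11 ± 0.25 (SE, limma adjusted p = 0.93, 95% interval -0.46 to 0.68). Without Dmrt1 KO replicate 2 it was -0.10.

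Tdrd1 encodes a Tudor domain scaffold that binds MILI, and its 2 rows stand for different transcript accessions of the gene. For NM_031387 the log2 intensity was 13.07, 12.93 and 13.29 in the controls and 13.57, 13.76 and 13.46 in the Dmrt1 KO arrays. Every Dmrt1 KO array was above every control, as in 6.8% of all rows. The log2 fold change was 0.50 ± 0.20 (SE, 1.41-fold, 95% interval 0.03 to 0.96), with a limma adjusted p of 0.498, so that it did not pass over all rows. For NM_001002238 the log2 intensity was 13.65, 13.69 and 13.63 in the controls and 14.16, 14.07 and 13.63 in the Dmrt1 KO arrays. Here replicates 1 and 2 of the Dmrt1 KO group were higher and replicate 3 was level with the controls, and the log2 fold change was 0.30 ± 0.21 (SE, limma adjusted p = 0.717, 95% interval -0.19 to 0.79). The rows thus had the same sign and differed in whether Dmrt1 KO replicate 3 joined the other 2 arrays. Within the 2 sets of arrays whose array numbers in the titles begin alike and that hold both genotypes, the difference was 0.50 and 0.64 for NM_031387 and 0.51 and 0.41 for NM_001002238.

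Mael encodes Maelstrom, a protein of the granules and of silencing by piRNAs. Its log2 intensity was 14.67, 14.71 and 14.85 in the controls and 14.89, 14.86 and 14.47 in the Dmrt1 KO arrays. Dmrt1 KO replicates 1 and 2 lay just above the highest control and replicate 3 lay below the lowest. Its log2 fold change was -0.01 ± 0.20 (SE, limma adjusted p = 0.996, 95% interval -0.48 to 0.46), and it was 0.13 without Dmrt1 KO replicate 3.

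Asz1 encodes GASZ, an ankyrin repeat protein that anchors the granules at mitochondria. Its log2 intensity was 11.95, 12.12 and 12.68 in the controls and 12.38, 12.92 and 12.34 in the Dmrt1 KO arrays. The groups overlapped, and the control SD of 0.38 was the highest among the 7 rows. Its log2 fold change was 0.29 ± 0.27 (SE, limma adjusted p = 0.806, 95% interval -0.33 to 0.92). It was 0.11 without Dmrt1 KO replicate 2, 0.14 without control replicate 1 and 0.51 without control replicate 3.

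The Dmrt1 KO arrays differed among themselves in these genes. With each gene taken as its brightest row, 5 of the 6 genes were above their control mean in Dmrt1 KO replicate 1 and 5 of 6 in replicate 2, against 1 of 6 in replicate 3. The count for replicate 3 depends on small values and on the row, since Piwil2 and the brightest row of Tdrd1 were each at -0.02. The other row of Tdrd1 was at 0.36 there. Relative to the control mean, the median over the 6 genes was 0.11, 0.34 and -0.05 in the 3 Dmrt1 KO arrays, and it ran from -0.04 to 0.02 in the controls. Dmrt1 KO replicate 3 is the array that stood apart over all rows, and its array number falls in neither of the 2 sets above. When these array number sets were blocked, which leaves that array without weight, the median log2 fold change over the 6 genes was 0.25, and no row passed.

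The rows nearest to the NM_031387 row of Tdrd1 were found by the root mean square distance of mean-centred log2 values over the 6 arrays, among 12404 named rows above the background guide. They were Fscn1 at 0.0476, Ube2a at 0.0522, Ppfibp2 at 0.0567, Apbb2 at 0.0574 and Prkaa1 at 0.0619, where the median row was at 0.375. The other Tdrd1 row was at 0.20.

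Around the measured genes, 6 lists of pathway genes and relatives were set beside them, of which 54 of 60 genes had a row. In limma 0 of the 54 passed an adjusted p of 0.05, and at an unadjusted p of 0.05 there were 3 higher and 4 lower, against 4.41% and 5.1% of all rows. The 3 became 1 without control replicate 1 or Dmrt1 KO replicate 2 and 5 without control replicate 3. The 4 became 2 without control replicate 1, control replicate 2 or Dmrt1 KO replicate 3, and 6 without control replicate 3. Their median log2 fold change was 0.01. The plot of differences shows the 18 genes named by the rule beside the 7 rows.

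**Figure D2:**
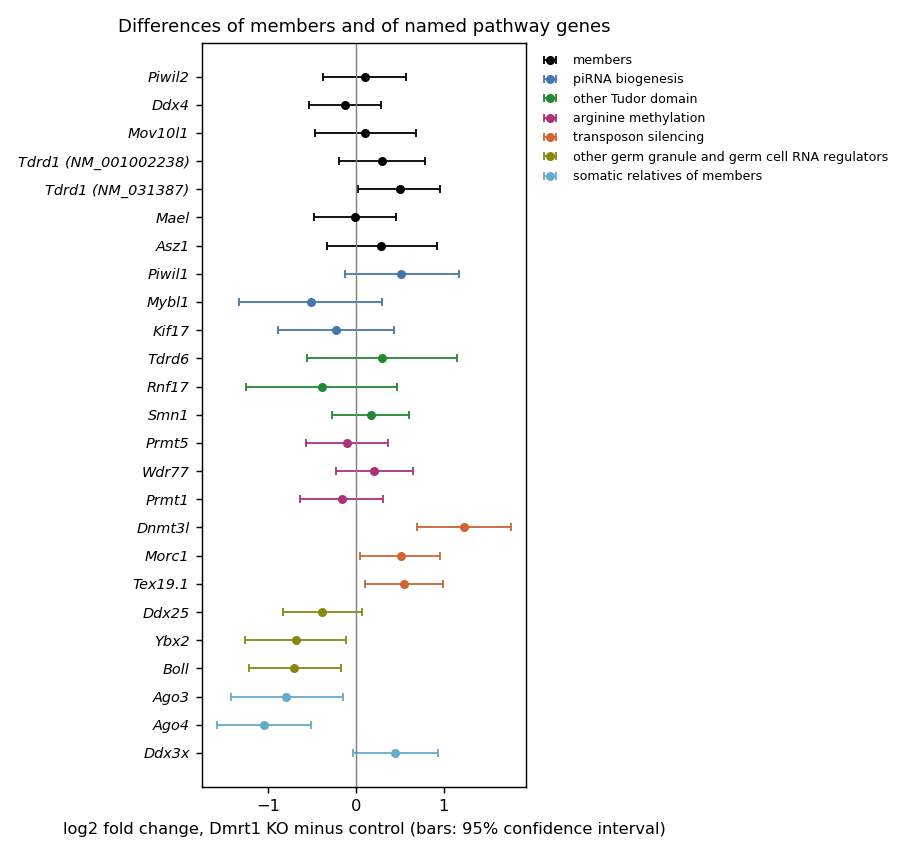
Log2 fold change of Dmrt1 KO over control (x axis) for the 7 rows of the measured piRNA pathway genes in black and for up to 3 genes of each pathway list in colour. The coloured genes are those with the smallest limma p in their list. Points are limma estimates from 3 against 3 arrays and bars are 95% confidence intervals. The interval of Dnmt3l lies above 0, from 0.70 to 1.77, and that of Ago4 below 0, from -1.58 to -0.51. Those of Tex19.1 and Morc1 also lie above 0, and those of Boll, Ybx2 and Ago3 below 0. The intervals of all 7 black rows except 1 row of Tdrd1 include 0.

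The list of piRNA biogenesis factors had 8 measured genes of 13, with 0 past an adjusted p of 0.05 in limma, 0 at an unadjusted p of 0.05 in either direction and a median of -0.12. Piwil1, which encodes MIWI, the PIWI protein of later spermatocytes and spermatids, read 9.17, 9.10 and 9.42 in log2 intensity in the controls and 9.48, 9.44 and 10.33 in the Dmrt1 KO arrays. All Dmrt1 KO arrays lay above the controls, 2 of them by less than 0.1, and the log2 fold change was 0.52 ± 0.28 (SE, limma adjusted p = 0.606), or 0.23 without Dmrt1 KO replicate 3. Mybl1, the transcription factor that drives pachytene piRNA precursors, had a log2 fold change of -0.51 ± 0.35, which was -0.20 without control replicate 2 and -0.89 without control replicate 3. Kif17, a kinesin of the chromatoid body, gave -0.22 ± 0.28, with values from -0.47 without control replicate 3 to -0.04 without control replicate 1.

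Among other Tudor domain genes, all 10 were measured and 0 passed in limma, also at an unadjusted p of 0.05, with a median log2 fold change of 0.03. Rnf17, a Tudor protein of germ granules, had a log2 fold change of -0.39 ± 0.37 (SE), which came from a value of 10.42 in Dmrt1 KO replicate 3 against 11.55 to 11.96 in the other 5 arrays, and it was 0.05 without that array. Smn1, a splicing assembly factor, gave 0.17 ± 0.19. Tdrd6, a chromatoid body scaffold, gave 0.30 ± 0.37, its mean being under the background guide in each group, and the sign turned with array weights (-0.02). The arginine methylation genes, whose products modify PIWI proteins among many others, had log2 fold changes of -0.10 ± 0.20 for Prmt5, 0.21 ± 0.19 for its partner Wdr77 and -0.16 ± 0.21 for Prmt1. None of these 3 passed in limma or was under an unadjusted p of 0.05.

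Genes for silencing transposons had 10 measured members of 11 and a median log2 fold change of 0.13. In limma 0 passed an adjusted p of 0.05, and 3 were higher and 0 lower at an unadjusted p of 0.05, against 4.41% and 5.1% of all rows. The groups were separated upward in 3, against 6.8% of all rows. Dnmt3l, a cofactor of de novo DNA methylation, read 8.06, 8.48 and 8.22 in log2 intensity in the controls and 9.79, 9.49 and 9.19 in the Dmrt1 KO arrays. Every Dmrt1 KO array was above every control, and the log2 fold change was 1.23 ± 0.23 (SE, 2.35-fold, limma adjusted p = 0.185). Inside those 2 array number sets the difference was 1.73 and 1.13. Tex19.1, a germ cell gene that limits retrotransposons, read 13.64, 13.80 and 13.69 in the controls and 14.24, 14.42 and 14.13 in the Dmrt1 KO arrays (log2 fold change 0.55 ± 0.19, adjusted p = 0.415). Morc1, an ATPase gene needed for transposon silencing in male germ cells, was at 11.62, 11.60 and 11.96 in the controls and 12.16, 12.24 and 12.29 in the Dmrt1 KO arrays (0.51 ± 0.20, adjusted p = 0.479). In both genes the groups did not overlap.

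**Figure D3:**
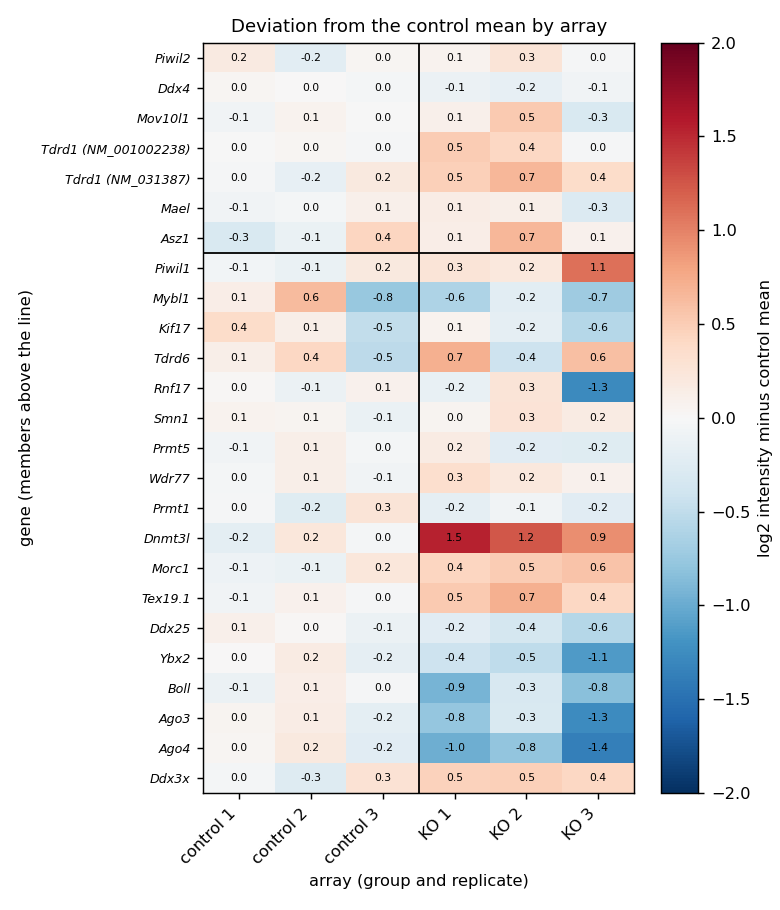
Log2 intensity minus the control mean (colour and printed number) for the measured piRNA pathway rows, above the horizontal line, and the named pathway genes, below it, in each of the 6 arrays. Dnmt3l, Morc1 and Tex19.1 are above the control mean in all 3 Dmrt1 KO arrays and Boll, Ybx2, Ago3 and Ago4 below it, while most rows above the line are near 0 or differ in sign between the Dmrt1 KO arrays.

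The other germ granule and germ cell RNA regulators were all measured, with a median log2 fold change of -0.20 over 15 genes. In limma 0 passed an adjusted p of 0.05. At an unadjusted p of 0.05, 0 were higher and 2 lower, against 4.41% and 5.1% of all rows. Boll, a relative of Dazl known from spermatocytes, was at 11.56, 11.81 and 11.66 in the controls and 10.74, 11.35 and 10.84 in the Dmrt1 KO arrays (log2 fold change -0.70 ± 0.23, SE, adjusted p = 0.401). Ybx2, which stores messenger RNA in germ cells, was at 11.09, 11.25 and 10.91 in the controls and 10.67, 10.58 and 9.95 in the Dmrt1 KO arrays (-0.68 ± 0.25, adjusted p = 0.442). The groups were separated in both genes, and also in Ddx25, a helicase of the chromatoid body (-0.38 ± 0.19, adjusted p = 0.594). Nanos3 was separated narrowly (-0.45 ± 0.25, adjusted p = 0.634). Every Dmrt1 KO array thus lay below every control in 4 of the 15 genes, against 8.54% of all rows. In 0 genes did every Dmrt1 KO array lie above every control, against 6.8%.

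The list of relatives of the measured genes had 8 measured genes and a median log2 fold change of -0.14. Of these, Gtsf1l lay below the background guide in both groups. In limma 0 of the 8 passed an adjusted p of 0.05. At an unadjusted p of 0.05, 0 were higher and 2 lower, against 4.41% and 5.1% of all rows. Every Dmrt1 KO array was above every control in 1 gene, against 6.8% of all rows, and below in 2, against 8.54%. Ago4, an Argonaute gene, was at 10.55, 10.70 and 10.28 in the controls and 9.53, 9.72 and 9.14 in the Dmrt1 KO arrays, and all Dmrt1 KO arrays lay below all controls (log2 fold change -1.05 ± 0.23, SE, 2.07-fold, adjusted p = 0.228). Ago3 was at 11.39, 11.49 and 11.14 in the controls and 10.56, 11.03 and 10.08 in the Dmrt1 KO arrays, again with no overlap (-0.79 ± 0.27, adjusted p = 0.422). Ddx3x, a relative of Ddx4, gave 0.45 ± 0.21 with every Dmrt1 KO array above every control.

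Markers of the cells in the samples were measured beside the pathway genes. The general germ cell list shares Dazl, Tex14 and Ddx25 with the list of germ granule and germ cell RNA regulators. Nanos2, Dnmt3b and Piwil1 are likewise in a marker list and a pathway list, so the lists are not independent. The general germ cell list had a median log2 fold change of -0.22 over 7 measured genes, and the log2 of its summed intensity ran from 16.95 to 17.05 in the controls and from 16.63 to 16.90 in the Dmrt1 KO arrays. The genes were mixed, with 5 below 0 and 2, Dppa4 (0.79 ± 0.26, SE) and Uchl1 (0.26 ± 0.19), above 0. In limma 0 passed an adjusted p of 0.05, and at an unadjusted p of 0.05 there was 1 higher, Dppa4, and 0 lower. Every Dmrt1 KO array lay above every control in 2 genes, against 6.8% of all rows, and below in 1, against 8.54%. The median of the general germ cell list lay -0.20, -0.12 and -0.52 from the control mean in the 3 Dmrt1 KO arrays, so Dmrt1 KO replicate 3 was lowest here as it was in the piRNA pathway genes. Undifferentiated spermatogonia markers had a median of -0.01 over 8 genes and differentiating ones of 0.03 over 6. In limma 0 of them passed an adjusted p of 0.05. At an unadjusted p of 0.05, with each gene taken as its brightest row, the undifferentiated list had 1 higher and the differentiating list 1 higher and 1 lower. The shares over all rows were 4.41% higher and 5.1% lower. The lower gene was Stra8 (-1.63 ± 0.27, SE, limma adjusted p = 0.147), with every Dmrt1 KO array below every control, as in 8.54% of all rows. The higher ones were Lin28a (0.59 ± 0.24) and Sohlh1 (0.50 ± 0.20). Sall4, in the undifferentiated list, had 3 rows, at -0.11 for the brightest and -0.56 and -0.51 for the others. Its row at -0.56 had an unadjusted p of 0.0368 in limma, with every Dmrt1 KO array below every control. All 9 measured early meiosis genes had a log2 fold change below 0, where 48% of all rows were above 0, and their median was -0.62. None passed an adjusted p of 0.05 in limma. At an unadjusted p of 0.05, 4 were lower, against 5.1% of all rows. In 5 of the 9 every Dmrt1 KO array lay below every control, against 8.54% of all rows. The log2 of the summed intensity of the 9 genes ran from 15.65 to 16.0 in the controls and from 15.03 to 15.74 in the Dmrt1 KO arrays. Their median shift from the control mean ran from -0.44 to 0.35 in the controls and from -0.78 to -0.29 in the Dmrt1 KO arrays. The groups thus overlapped in both of these summaries of the list. Of the 8 late spermatocyte and spermatid markers, 6 were below the background guide in both groups. The part of these shifts in the values of the pathway genes was not tested.

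**Figure D4:**
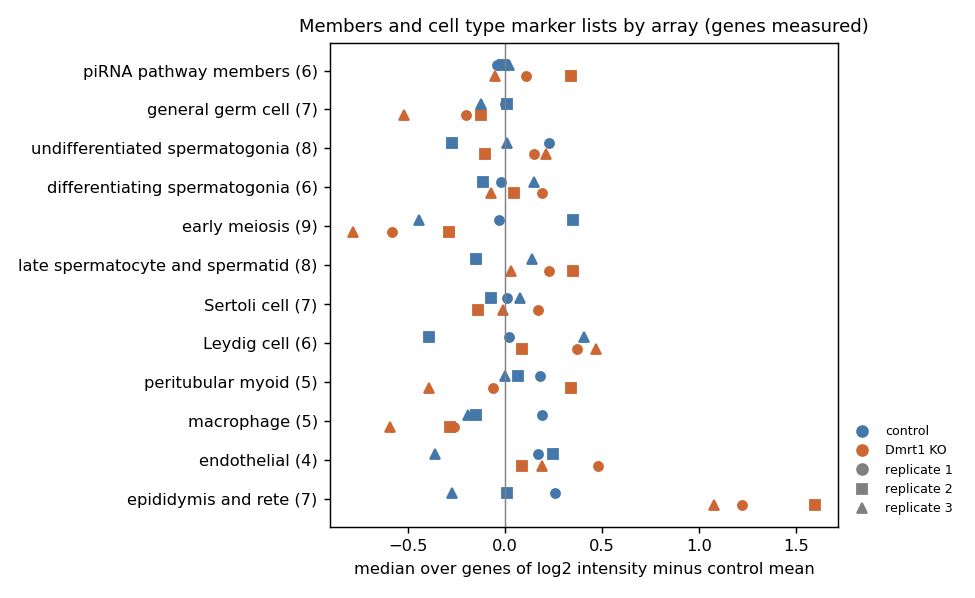
Median over the genes of each list of log2 intensity minus the control mean (x axis) on each array, with control arrays in blue and Dmrt1 KO arrays in orange and the number of genes measured in brackets. The piRNA pathway genes lie between -0.05 and 0.34 in the Dmrt1 KO arrays, the early meiosis list between -0.78 and -0.29, and the epididymis and rete list between 1.08 and 1.60.

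Somatic markers gave medians of 0.00 over 7 Sertoli cell genes, 0.30 over 6 Leydig cell genes, 0.10 over 5 peritubular myoid genes, -0.43 over 5 macrophage genes and 0.14 over 4 endothelial genes. The epididymis and rete list, for tissue beside and within the testis, had a median of 1.05 over 7 genes and a log2 of summed intensity from 11.24 to 12.06 in the controls and from 12.42 to 13.24 in the Dmrt1 KO arrays, with 2 of its genes below the background guide in both groups. No gene of these lists passed an adjusted p of 0.05 in limma. At an unadjusted p of 0.05 the epididymis and rete list had 4 higher and 1 lower, against 4.41% and 5.1% of all rows. The macrophage list had 1 lower, the endothelial list 1 higher and the Sertoli, Leydig and peritubular myoid lists none. In the epididymis and rete list the higher genes were Krt18 (1.79), Krt8 (0.96), Krt19 (1.05) and Pax8 (1.14). Rnase10 was the lower one (-1.12), and Rnase10 and Lcn8 were the genes below the guide. Crisp1 ran from 4.11 to 9.70 in the controls and from 4.46 to 10.96 in the Dmrt1 KO arrays. The part of these shifts in the values of the pathway genes was not tested either.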

How the data were processed

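Per the labels, total RNA of testes was hybridised to NimbleGen arrays, and RMA is the tool named per the submitters' processing notes. The authors deposited linear intensity values (8.81 to 65190), 1 per RefSeq accession and array, and log2 was taken here. The sources used here give neither the version of RMA nor the build and annotation of the probes. Accessions were matched without version to RefSeq symbols of assembly GRCm38.p6, which named 17780 of 25631 rows (69.4%). No coordinates of array rows are reported, and promoter windows come from the RefSeq table of that build.

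Each row was tested with limma version 3.58.1 (R version 4.3.3, lmFit and eBayes, no covariate, no filter, Benjamini-Hochberg over all rows, threshold 0.05) on 3 against 3 arrays. Errors are moderated SE (4 residual, 3.96 prior degrees of freedom). With 3 arrays a side, an exact two-sided permutation p cannot go below 0.1, so none was computed. The number of arrays limits the precision. A gene with several rows was represented by its brightest row in list medians, sums and counts.

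The genes, pathway lists and marker lists were chosen with earlier results of these data known. The rule for named genes took every row of the listed genes, up to 3 genes per pathway list by the smallest limma p, and the 5 rows nearest to the row with the smallest p. Replicate numbers follow the order of deposition. Alternatives were other scalings, filters, moderation, weights, a block for the array number group in the titles, and each array left out. Figures used matplotlib version 3.10.9 in Python version 3.11.15.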

Additional observations from a re-analysis of the deposited data

How the results depend on the processing

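In all 13 alternative settings 0 of the 7 piRNA pathway rows passed an adjusted p of 0.05 in limma, with a lowest adjusted p of 0.243. There 0 of the 54 pathway genes passed it either, apart from those that the filter on low rows left untested (Dnmt3l, Mybl1 and Tdrd6 among the named ones). At an adjusted p of 0.1, applied to the main fit only, 0 of both passed. Some named pathway genes came under 0.1 in alternative settings. Ago4 had an adjusted p of 0.0682 with the lowest 50% of rows left out and 0.0956 with trend and robust settings. For Dnmt3l it was 0.0667 with array weights, 0.0855 without Dmrt1 KO replicate 3 and 0.0956 with trend and robust settings. Of 91 values of the 7 rows under these settings, 84 kept their sign. With 1 array left out Piwil2 ran from -0.01 (control replicate 2 left out) to 0.19, Mov10l1 from -0.10 (Dmrt1 KO replicate 2 left out) to 0.32, Asz1 from 0.11 to 0.51, and Mael from -0.08 to 0.13. Mael turned with array medians subtracted (0.03), array weights (0.09), array number groups blocked (0.14), and when control replicate 3 (0.05) or Dmrt1 KO replicate 3 (0.13) was dropped. The median over the 6 genes was 0.25 with the block and 0.23 with array weights, and it ran from -0.02 to 0.24 with 1 array left out. The count of rows higher at an unadjusted p of 0.05 ran from 0 to 1 with 1 array left out, and was 0 when replicate 1 or 2 of either group was dropped.

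Settings for the pathway genes and Dmrt1 were chosen after seeing the data. Of 231 values of the 18 named genes 228 kept their sign. Rnf17 turned with the block (0.08) and without Dmrt1 KO replicate 3 (0.05, against -0.72 without Dmrt1 KO replicate 2), and Tdrd6 with array weights (-0.02). Pathway genes higher at an unadjusted p of 0.05 numbered 5 with trend and robust settings and 1 to 5 with 1 array left out, being 1 without control replicate 1 or Dmrt1 KO replicate 2 and 5 without control replicate 3. Lower ones numbered 2 with the block and 2 to 6 with 1 array left out, being 2 without control replicate 1, control replicate 2 or Dmrt1 KO replicate 3 and 6 without control replicate 3. Dmrt1 passed with the lowest 50% of rows left out (-1.32, adjusted p = 0.019), where fewer rows were tested, with trend and robust settings (-1.32, 0.00314) and with array weights (-1.40, 0.0285). The cause of the other changes was not tested. No paired analysis was possible because the labels give no replicate numbers.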

Other observations

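Ago1, Ago3 and Ago4 are neighbours on chromosome 4 in the RefSeq annotation of GRCm38.p6, in the order Ago3, Ago1, Ago4 with no other protein-coding gene between them, while Ago2 is on chromosome 15. Ago1 and Ago2 were chosen after their values were seen. The log2 fold change of Ago1 was -0.50 ± 0.24 (SE, limma adjusted p = 0.564), between -0.74 and -0.35 from the control mean in the 3 Dmrt1 KO arrays, beside -1.05 for Ago4 and -0.79 for Ago3. Ago2 gave 0.15 ± 0.21 (adjusted p = 0.88). None of the 4 genes passed, and the difference between the neighbours and Ago2 was not tested.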
